A study of Mus musculus with 27 samples.

Results

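Interferon-stimulated genes are the genes that cells switch on when they sense an interferon. Type I interferons bind a receptor of 2 chains, Ifnar1 and Ifnar2, whose kinases Jak1 and Tyk2 activate transcription factors, Stat2 among them, that join Irf9 to bind interferon-stimulated response elements in promoters. The products hinder virus entry, translation and release, and some dampen the pathway again. The 9 genes described here were chosen by name from the 54532 genes of the deposited table: Irf7, a transcription factor that raises type I interferon transcription; Isg15, a ubiquitin-like modifier, with Usp18, the protease that removes it and that also blocks the receptor; Ifit1 and Ifit3, tetratricopeptide proteins that act on viral RNA; Oasl2, an oligoadenylate synthetase-like protein; Rsad2, the radical SAM enzyme viperin; Bst2, or tetherin, which holds enveloped virions at the cell surface; and Ifi35, an interferon-induced leucine zipper protein. Levels are in FPKM, fragments scaled to the exon length of the gene and to a scaling factor of the library. All 9 passed the filter on low values, a mean of at least 0.5 FPKM, which 14932 genes passed in total. Rsad2, with a mean of 0.560 FPKM, passed only through its day 4 libraries, and Oasl2, with a mean of 0.392 FPKM on day 0, only through those of days 2 and 4, so the part of these genes in the counts below could hardly be other than a rise.

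Bulk mRNA was sequenced from mouse embryonic fibroblasts (MEFs) on the way to induced neurons (iNs), in 27 libraries. The cells were WT or homozygous for the tm1Drw allele of Per1 (Per1-/-) or of Per2 (Per2-/-), and each was sampled on day 0, day 2 and day 4, which gave 9 groups of 3 replicates. Per1 and Per2 encode period proteins of the circadian clock. All cultures, those of day 0 included, had received lentiviruses for doxycycline-inducible reprogramming factors, Brn2 and Myt1l among them, and for the activator rtTA. The serum medium was exchanged on day 0 for serum-free N3 medium with doxycycline, so time, the medium and induction of the factors cannot be told apart in a comparison of days. The fibroblasts came from mid-gestation embryos without head and heart, several of them pooled in a dish, and such cultures can contain macrophages. The labels call the replicates biological, but the sources used here do not say which were separate cultures, so p-values measure the spread between these libraries, which may in part be technical.

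Depth ran from 15815013 to 24264097 fragments per library. The scaling factor in the deposited FPKM was 0.865 to 0.925 times the library's fragments on day 0. It was 1.03 to 1.10 times the fragments on days 2 and 4. Changes from day 0 therefore depend on this scaling, and other scalings were among the alternatives. In the libraries labelled Per2-/-, Per2 stood at 1.87 to 2.00 FPKM on day 0 against 0.817 to 0.957 in WT, and the difference of 1.03 on the log2 scale was past the test (adjusted p = 0.00114 by limma). This does not measure the protein, and these libraries are named by their label. In Per1-/- libraries, Per1 differed from WT by -0.50 on the log2 scale on day 0, -0.19 on day 2 and -0.21 on day 4, none past the test. The counts cover all exons of a gene, and which of them the mutant alleles lack was not examined. The 10 fibroblast markers summed to 2307 to 5763 FPKM per library. The 10 neuron markers, those of the labelled cell type, summed to less in every library, 47.0 to 220.2, with Rbfox3 at no more than 18 fragments in a library. These sums are of different genes, so their order does not compare numbers of cells. In a bulk library, fewer cells of a type and less RNA per cell cannot be told apart.

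The promoters of the members carry the best-known sequence of the pathway unevenly. The window from 250 bases before to 50 bases after the RefSeq start (GRCm38.p6) was found for 8 of the 9 members, Usp18 being the exception. GAAA, any 2 bases and GAAA, searched on both strands as the core of the interferon-stimulated response element, was in 5 of the 8 windows (Isg15, Bst2, Rsad2, Ifit3 and Ifit1) and in 3.44% of 32851 windows of all genes. The E-box CACGTG, searched likewise, which the clock proteins Clock and Bmal1 bind, was in 0 of the 8 windows and in 7.15% of all. Promoters of 4 members are shown, 5′ to 3′ on the strand of the gene and ending at the base before the start, with the response element core or its reverse complement in capitals. Isg15 (chr4:156200819-156201068, minus strand) has 3 overlapping copies; Ifit1 (chr19:34640639-34640888, plus strand) and Ifit3 (chr19:34583279-34583528, plus strand) have a pair each; Oasl2 (chr5:114896684-114896933, plus strand) has none in the window. A match is a description of the letters only, and no match says nothing of a factor's binding.
Isg15: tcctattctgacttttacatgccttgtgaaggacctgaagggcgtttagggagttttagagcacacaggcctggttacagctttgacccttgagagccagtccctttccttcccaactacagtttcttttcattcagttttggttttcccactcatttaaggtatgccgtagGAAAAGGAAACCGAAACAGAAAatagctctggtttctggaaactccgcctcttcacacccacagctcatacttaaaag
Ifit1: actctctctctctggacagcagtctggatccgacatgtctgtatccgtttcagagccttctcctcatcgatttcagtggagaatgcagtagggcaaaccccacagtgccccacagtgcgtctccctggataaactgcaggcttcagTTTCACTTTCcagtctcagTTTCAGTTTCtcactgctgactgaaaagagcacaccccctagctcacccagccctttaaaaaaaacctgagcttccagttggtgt
Ifit3: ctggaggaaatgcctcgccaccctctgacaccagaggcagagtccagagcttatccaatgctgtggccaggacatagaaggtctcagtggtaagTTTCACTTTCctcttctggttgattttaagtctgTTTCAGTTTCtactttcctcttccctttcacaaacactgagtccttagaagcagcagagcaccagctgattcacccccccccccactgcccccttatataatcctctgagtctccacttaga
Oasl2: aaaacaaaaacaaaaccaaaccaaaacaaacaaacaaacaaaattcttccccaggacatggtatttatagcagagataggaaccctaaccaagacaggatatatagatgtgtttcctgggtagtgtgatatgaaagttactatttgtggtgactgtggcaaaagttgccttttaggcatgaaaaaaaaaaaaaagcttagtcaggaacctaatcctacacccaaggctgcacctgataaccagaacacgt

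In the annotation used for the counts (GRCm38), Irf7 lies at chr7:141262706-141266481 and Isg15 at chr4:156199424-156200818, both on the minus strand. Usp18 is at chr6:121245906-121270917 on the plus strand. Ifit3 (chr19:34583531-34588731) and Ifit1 (chr19:34640871-34650009) lie in the same cluster on the plus strand. Oasl2 is at chr5:114896936-114912234 and Ifi35 at chr11:101448407-101458698, both plus strand, and Bst2 at chr8:71534255-71537456 and Rsad2 at chr12:26442746-26456452, both minus strand. The libraries did not keep the strand, so reads of genes on the opposite strand cannot be separated: Phrf1 overlaps the span of Irf7 by 45 bases, Gm44148 that of Usp18 by 15715 and Gm11626 that of Ifi35 by 815. Ifit3 has a near-identical copy, Ifit3b, so its counts are uncertain. Fragments behind a member's value ran from 5 to 216 per library for Rsad2 and from 359 to 2468 for Bst2, with the other members between 21 and 1821.

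Irf7 rose from day 0 to day 2 and to day 4 in every genotype. On day 0 Irf7 stood at 0.640, 0.794 and 1.06 FPKM in the WT libraries, 1.19, 0.722 and 0.735 in the Per1-/- libraries and 0.602, 1.08 and 0.584 in those labelled Per2-/-. By day 2 the values were 2.67, 2.02 and 3.13 FPKM in the WT libraries, 4.29, 3.06 and 2.58 in the Per1-/- libraries and 2.01, 4.03 and 2.49 in those labelled Per2-/-. On day 4 they were 3.60, 6.97 and 3.52 FPKM in the WT libraries, 10.5, 6.41 and 4.30 in the Per1-/- libraries and 4.79, 5.58 and 7.04 in those labelled Per2-/-. The days did not overlap between day 0 and day 2 or between day 0 and day 4, and the genotypes did. Over the 9 libraries of a day Irf7 went from 0.823 ± 0.228 FPKM (SD, n = 9) to 2.92 ± 0.806 FPKM and 5.86 ± 2.21 FPKM. The log2 fold change averaged over the genotypes, on the log2(FPKM + 0.1) scale that all fold changes here use, was 1.70 (SE 0.19, adjusted p = 7.4e-08) from day 0 to day 2 and 2.65 (SE 0.19, adjusted p = 6.5e-11) from day 0 to day 4, or 6.27-fold. All adjusted p-values for single genes are limma's, with Benjamini-Hochberg adjustment over the 14932 genes, and a gene was called changed at an adjusted p of at most 0.05 with a log2 change of at least 0.58.

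Isg15 and Usp18, the modifier and its protease, made most of their rise by day 2 on the log2 scale, though not in FPKM for Isg15. Isg15 on day 0 was 4.03, 6.27 and 6.001 FPKM in the WT libraries, 5.81, 3.52 and 5.02 in the Per1-/- libraries and 3.08, 9.19 and 3.15 in those labelled Per2-/-. Day 2 gave 25.99, 24.5 and 20.2 FPKM in the WT libraries, 20.8, 34.5 and 29.5 in the Per1-/- libraries and 15.3, 30.6 and 25.9 in those labelled Per2-/-. Day 4 gave 31.9, 67.0 and 31.8 FPKM in the WT libraries, 48.0, 49.2 and 25.1 in the Per1-/- libraries and 48.8, 48.1 and 72.2 in those labelled Per2-/-. Every day 2 and day 4 library lay above every day 0 library, and days 2 and 4 overlapped. The day means of Isg15 were 5.12 ± 1.97 FPKM, 25.2 ± 5.90 FPKM and 46.9 ± 15.8 FPKM, with log2 changes of 2.33 (SE 0.22, adjusted p = 4.65e-09) to day 2 and 3.18 (SE 0.22, adjusted p = 2.8e-11) to day 4, 9.07-fold. Usp18 on day 0 was 1.07, 0.918 and 0.876 FPKM in the WT libraries, 0.834, 0.907 and 0.777 in the Per1-/- libraries and 0.692, 1.48 and 0.749 in those labelled Per2-/-. Day 2 values of Usp18 were 3.53, 2.86 and 3.30 FPKM in the WT libraries, 3.77, 4.07 and 3.28 in the Per1-/- libraries and 1.85, 4.38 and 3.20 in those labelled Per2-/-. Its day 4 values were 3.80, 8.17 and 2.72 FPKM in the WT libraries, 7.65, 5.45 and 2.44 in the Per1-/- libraries and 5.21, 4.87 and 7.43 in those labelled Per2-/-. The same order of days held for Usp18, again with no overlap between day 0 and either later day. Usp18 changed by 1.75 (SE 0.22, adjusted p = 2.77e-07) to day 2 and 2.32 (SE 0.22, adjusted p = 3.53e-09) to day 4. By day 2 it had made 75.6% of its log2 change to day 4 and Isg15 had made 73.2%, the highest shares among the 9 members. From day 2 to day 4 Isg15 rose by 0.85 (SE 0.22, adjusted p = 0.00619), while Usp18 differed by 0.57 (SE 0.22, adjusted p = 0.0551), short of the test.

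Of the gene family of Ifit1 and Ifit3, Ifit1 was called higher by day 2 and Ifit3 only by day 4. Ifit1 on day 0 was 1.42, 0.801 and 1.13 FPKM in the WT libraries, 1.98, 0.708 and 1.33 in the Per1-/- libraries and 1.09, 3.16 and 0.962 in those labelled Per2-/-. On day 2 Ifit1 was 6.003, 6.19 and 6.01 FPKM in the WT libraries, 11.3, 8.55 and 6.61 in the Per1-/- libraries and 4.05, 10.3 and 7.65 in those labelled Per2-/-. On day 4 Ifit1 was 14.5, 30.2 and 12.2 FPKM in the WT libraries, 33.3, 21.3 and 9.57 in the Per1-/- libraries and 27.6, 18.9 and 29.0 in those labelled Per2-/-. Each day 2 and each day 4 library was above every day 0 library. Ifit1 changed by 2.40 (SE 0.27, adjusted p = 6.98e-08) to day 2 and 3.89 (SE 0.27, adjusted p = 2.99e-11) to day 4, 14.8-fold. Ifit3 on day 0 was 3.98, 4.96 and 4.34 FPKM in the WT libraries, 3.67, 2.68 and 4.08 in the Per1-/- libraries and 3.97, 6.23 and 2.80 in those labelled Per2-/-. On day 2 Ifit3 was 3.74, 1.92 and 3.30 FPKM in the WT libraries, 6.69, 3.92 and 3.29 in the Per1-/- libraries and 3.21, 5.53 and 2.49 in those labelled Per2-/-. On day 4 Ifit3 was 7.73, 15.9 and 7.51 FPKM in the WT libraries, 29.5, 13.1 and 7.72 in the Per1-/- libraries and 12.5, 12.2 and 20.4 in those labelled Per2-/-. Days 0 and 2 overlapped for Ifit3, and every day 4 library was above every library of days 0 and 2. Its change to day 2 was -0.15 (SE 0.24, adjusted p = 0.588), not past the test and of the opposite sign (0.23) when the FPKM of each library were rescaled to a common sum, which moves the median of all tested genes by 0.36 to day 2 and 0.29 to day 4. To day 4 Ifit3 changed by 1.66 (SE 0.24, adjusted p = 2.66e-06) and from day 2 to day 4 by 1.81 (SE 0.24, adjusted p = 1.94e-05).

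The ratio of Ifit1 to Ifit3, in FPKM within a library, was 0.161 to 0.540 on day 0 (median 0.325), 1.26 to 3.22 on day 2 (median 1.86) and 1.13 to 2.20 on day 4 (median 1.62), so day 0 did not overlap the later days. Ifit3b, the near-identical copy of Ifit3, was called higher on day 2 (1.04) and on day 4 (2.32) against day 0, on the log2 scale, and the ratio of Ifit3 to Ifit3b went from 3.74 to 13.8 on day 0 to 1.28 to 2.82 on day 2 and 2.50 to 4.09 on day 4. How fragments were split between the copies was not tested. Ifit2, of the same family and outside the chosen genes, was at 7.34 to 10.4 FPKM on day 0, 5.93 to 7.01 on day 2 and 6.51 to 9.37 on day 4, with log2 changes of -0.47 and -0.19 against day 0, neither past the fold threshold.

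Oasl2, of the oligoadenylate synthetase family, rose from a low level, under 1 FPKM in every day 0 library. On day 0 Oasl2 was 0.297, 0.159 and 0.383 FPKM in the WT libraries, 0.446, 0.397 and 0.616 in the Per1-/- libraries and 0.383, 0.566 and 0.282 in those labelled Per2-/-. On day 2 Oasl2 was 2.25, 2.53 and 3.03 FPKM in the WT libraries, 4.53, 3.99 and 3.25 in the Per1-/- libraries and 1.43, 3.57 and 2.89 in those labelled Per2-/-. On day 4 Oasl2 was 3.76, 9.74 and 4.45 FPKM in the WT libraries, 13.05, 7.59 and 4.26 in the Per1-/- libraries and 5.89, 7.41 and 8.65 in those labelled Per2-/-. No library of day 2 or 4 overlapped day 0. The changes were 2.67 (SE 0.22, adjusted p = 5.26e-10) to day 2 and 3.84 (SE 0.22, adjusted p = 1.37e-12) to day 4, 14.3-fold. Rsad2 was the lowest member. On day 0 Rsad2 was 0.436, 0.0557 and 0.161 FPKM in the WT libraries, 0.119, 0.105 and 0.172 in the Per1-/- libraries and 0.210, 0.269 and 0.0938 in those labelled Per2-/-. On day 2 Rsad2 was 0.534, 0.187 and 0.380 FPKM in the WT libraries, 0.524, 0.439 and 0.406 in the Per1-/- libraries and 0.361, 0.414 and 0.259 in those labelled Per2-/-. On day 4 Rsad2 was 0.790, 0.840 and 0.864 FPKM in the WT libraries, 2.42, 1.36 and 0.577 in the Per1-/- libraries and 1.21, 0.935 and 0.987 in those labelled Per2-/-. The WT day 0 libraries of Rsad2 rest on 36, 5 and 14 fragments and overlap day 2, and every day 4 library was above every library of days 0 and 2. Its fitted changes were 0.86 (SE 0.25, adjusted p = 0.00388) to day 2 and 2.10 (SE 0.25, adjusted p = 1.23e-07) to day 4. With a pseudocount of 1 in place of 0.1, the change to day 2 was 0.24, under the fold threshold.

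Bst2 was the highest member on every day. On day 0 Bst2 was 31.5, 30.2 and 33.8 FPKM in the WT libraries, 25.8, 27.7 and 35.1 in the Per1-/- libraries and 22.6, 32.3 and 27.3 in those labelled Per2-/-. On day 2 Bst2 was 51.2, 56.0 and 53.6 FPKM in the WT libraries, 62.2, 72.2 and 76.1 in the Per1-/- libraries and 40.2, 60.3 and 58.2 in those labelled Per2-/-. On day 4 Bst2 was 65.9, 123 and 63.0 FPKM in the WT libraries, 103, 90.4 and 81.0 in the Per1-/- libraries and 74.6, 77.6 and 124 in those labelled Per2-/-. Days 2 and 4 were each clear of day 0. Bst2 changed by 0.98 (SE 0.13, adjusted p = 5.31e-07) to day 2 and by 1.56 (SE 0.13, adjusted p = 3.85e-10) to day 4, 2.95-fold, and its difference between days 4 and 2 was 0.58 (SE 0.13, adjusted p = 0.00187), under the fold threshold before rounding. Ifi35 moved least. On day 0 Ifi35 was 6.06, 7.70 and 6.78 FPKM in the WT libraries, 7.003, 4.62 and 8.43 in the Per1-/- libraries and 4.73, 6.45 and 6.32 in those labelled Per2-/-. On day 2 Ifi35 was 7.40, 6.70 and 7.003 FPKM in the WT libraries, 8.87, 7.77 and 8.79 in the Per1-/- libraries and 5.97, 7.07 and 8.04 in those labelled Per2-/-. On day 4 Ifi35 was 8.34, 12.7 and 7.07 FPKM in the WT libraries, 13.2, 10.4 and 7.93 in the Per1-/- libraries and 9.40, 9.997 and 11.5 in those labelled Per2-/-. The 3 days overlapped. Ifi35 differed by 0.23 (SE 0.12, adjusted p = 0.0966) on day 2, where rescaling to a common sum gave 0.61 (adjusted p = 0.000169), past both thresholds, and rose by 0.63 (SE 0.12, adjusted p = 9.16e-05) to day 4, just past the fold threshold, and it missed that threshold at 0.55 without Per1-/- day 0 replicate 2, 0.55 without WT day 4 replicate 2 and 0.57 without Per1-/- day 4 replicate 1.

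**Figure D1:**
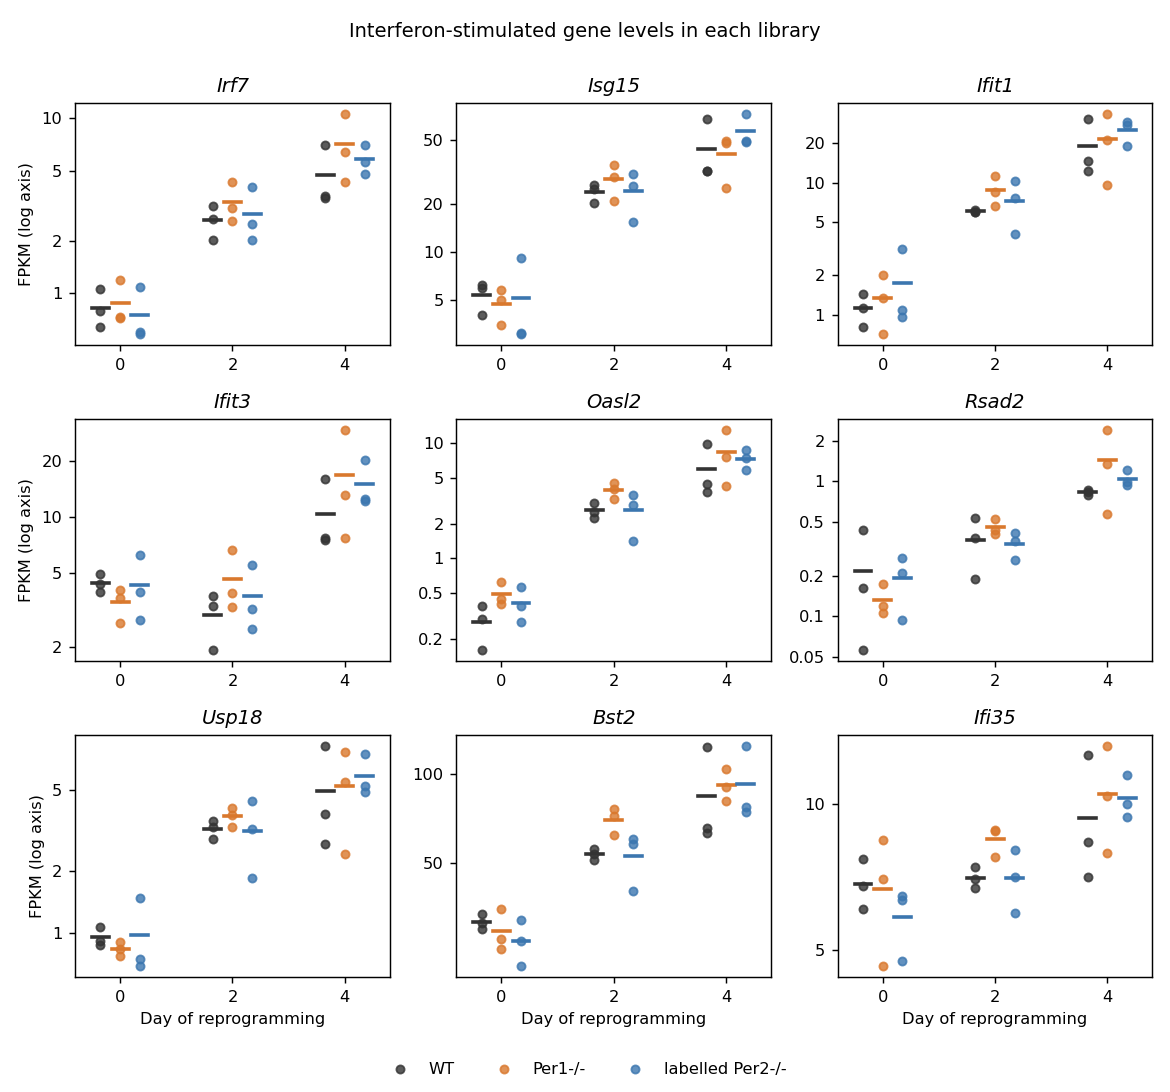
FPKM (log axis) of each of the 9 interferon-stimulated genes against the day of reprogramming, one point per library, coloured by genotype label, with a horizontal bar at the mean of the 3 libraries of a group. Isg15, for example, lies between 3.08 and 9.19 FPKM on day 0 and between 25.1 and 72.2 on day 4, while the days 0 and 2 overlap for Ifit3 and all 3 days overlap for Ifi35.

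Ordered by level per length, the day 0 means ran Bst2, Ifi35, Isg15, Ifit3, Ifit1, Usp18, Irf7, Oasl2 and Rsad2, and only Bst2 and Ifi35 were neighbours whose ranges over 9 libraries did not overlap. On day 2 the order was Bst2, Isg15, Ifi35, Ifit1, Ifit3, Usp18, Oasl2, Irf7 and Rsad2. The gaps below Bst2 and Isg15 and above Rsad2 were free of overlap, and neighbours among the 6 genes between them overlapped. On day 4 it was Bst2, Isg15, Ifit1, Ifit3, Ifi35, Oasl2, Irf7, Usp18 and Rsad2, and only Usp18 and Rsad2, at the bottom, were neighbours without overlap.

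Averaged over the genotypes, 7 of the 9 members were called higher on day 2 than on day 0, beside 22.2% of all tested genes, and Ifi35 and Ifit3 were not. All 9 were called higher on day 4 than on day 0, beside 24.4% of tested genes. From day 2 to day 4, 6 were called higher, beside 6.54%, with Bst2, Usp18 and Ifi35 short of a threshold. None was called lower, beside 19.9%, 21.2% and 3.43% of tested genes in the same comparisons. The median log2 change of the members was 1.70 to day 2, 2.32 to day 4 and 0.94 from day 2 to day 4, where the median of all tested genes was -0.01 in each. Without Oasl2 and Rsad2, which passed the filter only through later days, the counts called higher were 5, 7 and 4 of 7. Voom weights on the fragments behind the FPKM called 7, 9 and 7. The libraries of day 4 were all above those of day 0 for 8 of 9 members, beside 19.8% of tested genes. Those of day 2 were all above those of day 0 for 6, beside 19.7%. For Ifit3 and Rsad2 alone among the members, every day 4 library was above every day 2 library, beside 2.01% of tested genes.

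The days differed within each genotype too. From day 0 to day 2, 6 members were called higher in WT (background 20.8%), 7 in Per1-/- (20.8%) and 6 in the libraries labelled Per2-/- (18.7%), and the seventh in Per1-/- was Rsad2. From day 0 to day 4, 8 were called in WT (22.9%), 9 in Per1-/- (22.6%) and 9 in those labelled Per2-/- (21.6%). Ifi35 in WT, at 0.41 (adjusted p = 0.0994), was the exception. Isg15 rose over those 4 days by 2.91 in WT, 3.03 in Per1-/- and 3.60 in those labelled Per2-/-, on the log2 scale. Ifit1 rose by 3.89, 3.83 and 3.95 in the same order. From day 2 to day 4, 1 member passed in WT (1.62%), 1 in Per1-/- (1.38%) and 4 in those labelled Per2-/- (2.32%). Ifit3 was called in all 3 genotypes, and Bst2, Ifit1 and Oasl2 besides in the libraries labelled Per2-/-. With the replicate number as a block, these counts from day 2 to day 4 were 2, 2 and 7: Ifit1 was added in WT, Irf7 in Per1-/-, and Irf7, Isg15 and Rsad2 in those labelled Per2-/-. Leaving out 1 library moved them to between 0 and 2 in WT, 0 and 2 in Per1-/- and 0 and 6 in those labelled Per2-/-. They were 0 in WT without WT day 2 replicate 2 or 3 or day 4 replicate 2, and 0 in Per1-/- without its day 2 replicate 2 or 3 or its day 4 replicate 1 or 2. In those labelled Per2-/- the count was 1 without day 2 replicate 1, 2 without day 2 replicate 3 and 0 without day 4 replicate 3.

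No member was called between genotypes. In 18 comparisons of genotypes (within each day, in the change from day 0, and over the days), limma called 0 of the 9 members, and the voom fit also called 0. Of the 162 member tests, 1 had an unadjusted p under 0.05. Few genes were called in these comparisons at all. The share of tested genes called in either direction was 0.0134%, 0.0067% and 0.0268% for Per1-/- against WT on days 0, 2 and 4. It was 0.0067%, 0.0268% and 0.0067% for the libraries labelled Per2-/- against WT, and 0.0201%, 0.0737% and 0.556% for Per1-/- against those labelled Per2-/-. For the 6 differences of change from day 0 it was 0%. Over the days it was 0%, 0.0067% and 0.0134%. Within a day, member differences ran from -0.51 to 0.66 on the log2 scale. Their 95% intervals spanned -1.36 to 1.48 in all, and 7 of the 81 intervals, all of Bst2 or Ifi35, lay inside the fold threshold on both sides of 0.

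Over the days, with the mean of the 3 days of same-numbered libraries as 1 value, Isg15 differed between Per1-/- and WT by -0.0038, 95% interval -0.48 to 0.48. The libraries labelled Per2-/- differed from WT in Isg15 by 0.05, 95% interval -0.43 to 0.54. Usp18 gave 0.04, 95% interval -0.47 to 0.55 for Per1-/- against WT. Oasl2 had the smallest p of the members, with 0.56, 95% interval 0.10 to 1.02, an unadjusted p of 0.0219 and an adjusted p of 0.908 by limma. The lower 95% bound of the change from day 0 to day 4 was set beside a genotype bound. The latter was the 95% bound farthest from 0 of any genotype difference over the days, in size. These were 2.24 and 0.86 for Irf7, 2.72 and 0.54 for Isg15, 3.33 and 0.98 for Ifit1, and 1.15 and 0.80 for Ifit3. They were 3.38 and 1.02 for Oasl2, 1.58 and 0.87 for Rsad2, 1.86 and 0.58 for Usp18, and 1.29 and 0.49 for Bst2. For Ifi35 the day bound, 0.37, was the smaller, beside 0.45. The share of all tested genes with the day bound the larger is not given. Oasl2 and Rsad2 passed the filter only through later days. The changes from day 0 shared their day 0 libraries. With 3 libraries a group, genotype differences as large as the bounds of these intervals could have gone undetected. Over the days the bounds reached 1.02, for Oasl2. Within a day they reached -1.36, for Ifit1, and 1.48, for Ifit3, the latter above the lower day bound of Ifit3, 1.15.

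**Figure D2:**
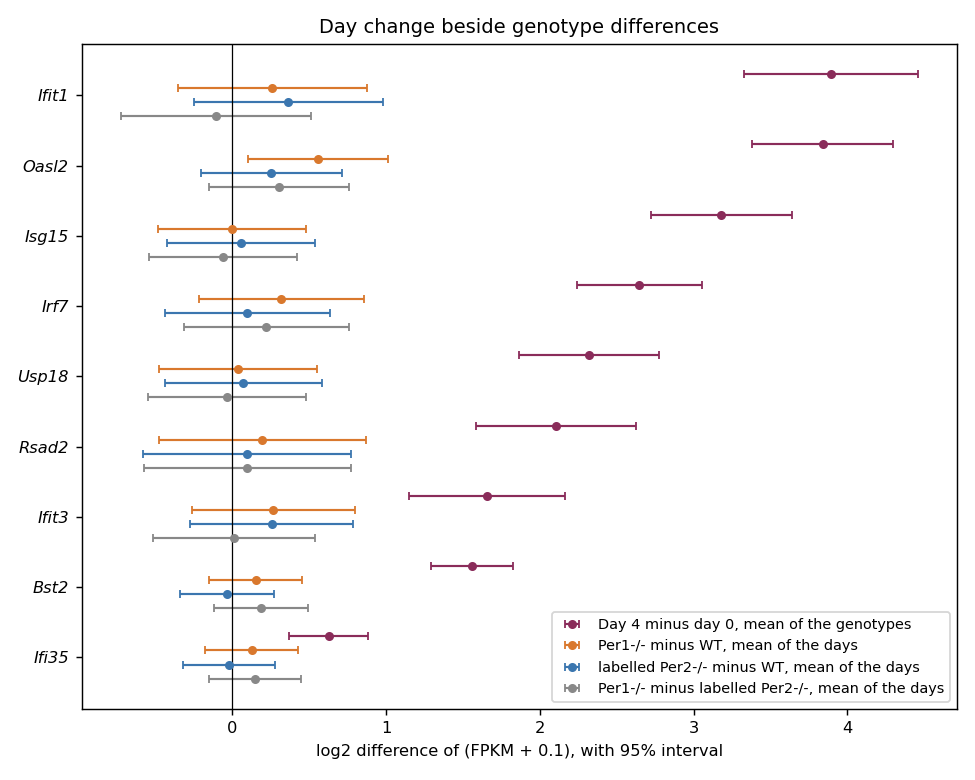
Log2 differences with 95% intervals for each member, from limma, for day 4 minus day 0 averaged over genotypes and for the 3 genotype differences over the days. The day 4 changes run from 0.63 for Ifi35 to 3.89 for Ifit1, and the genotype differences, from -0.10 to 0.56, have intervals that hold 0 except for Oasl2 in Per1-/- against WT.

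Signs and overlaps of the genotype differences were uneven. On day 2, all 9 members had a Per1-/- mean above the WT mean, by 0.19 to 0.60, and in Ifit1, Oasl2, Bst2 and Ifi35 every Per1-/- library lay above every WT library, beside 5.26% of tested genes. All 9 were also above the mean of the libraries labelled Per2-/- on day 2, by 0.24 to 0.64. The summed level of 20 macrophage markers on day 2 was 741 to 1494 FPKM in Per1-/-, 375 to 615 in WT and 216 to 452 in those labelled Per2-/-. Replicate 2 of the latter had the lowest sum of the day, 216 FPKM, and ranked 2 of the day in the mean of the members. With the macrophage marker mean as a covariate, 0 members were called between Per1-/- and WT on day 2, as without it. The part of macrophages in the difference was not tested. On day 4, all 9 had a mean above WT in the libraries labelled Per2-/-, by 0.17 to 0.58, and Rsad2 was without overlap, beside 4.11%. The macrophage sums on day 4 were 554 to 947 FPKM in the libraries labelled Per2-/- and 733 to 1274 in WT. Oasl2 was without overlap between Per1-/- and WT on day 0, beside 2.31%. Bst2 was without overlap between Per1-/- and the libraries labelled Per2-/- on day 2, beside 8.59%. In the remaining comparisons within a day the signs were mixed. Per1-/- against WT ran from -0.36 to 0.66 on day 0 and from -0.07, for Isg15, to 0.56 on day 4. The libraries labelled Per2-/- against WT ran from -0.25 to 0.44 on day 0 and -0.12 to 0.29 on day 2. Per1-/- against those ran from -0.29 to 0.22 on day 0 and -0.51 to 0.25 on day 4. The share of all tested genes by sign is not given. The 9 members move together from library to library, so 9 signs are not 9 observations.

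The share of each member's total variance on the log2 scale that lay between days was 52.3% to 91.8%, with a median of 85.1%, and the share between genotypes 0.0353% to 3.31%, with a median of 1.32%. The medians over all tested genes were 64.6% and 2.54%. Oasl2 had the highest day share, 91.8%, followed by Isg15 at 90.3% and Ifit1 at 89.8%. Ifi35 had the lowest, 52.3%, with 39.2% between replicates, and Ifit3 had 72.4%. Replicates of the members nonetheless spread widely: the SD within groups was 0.28 (Ifi35) to 0.62 (Ifit1) on the log2 scale, where the median of all tested genes was 0.20.

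**Figure D3:**
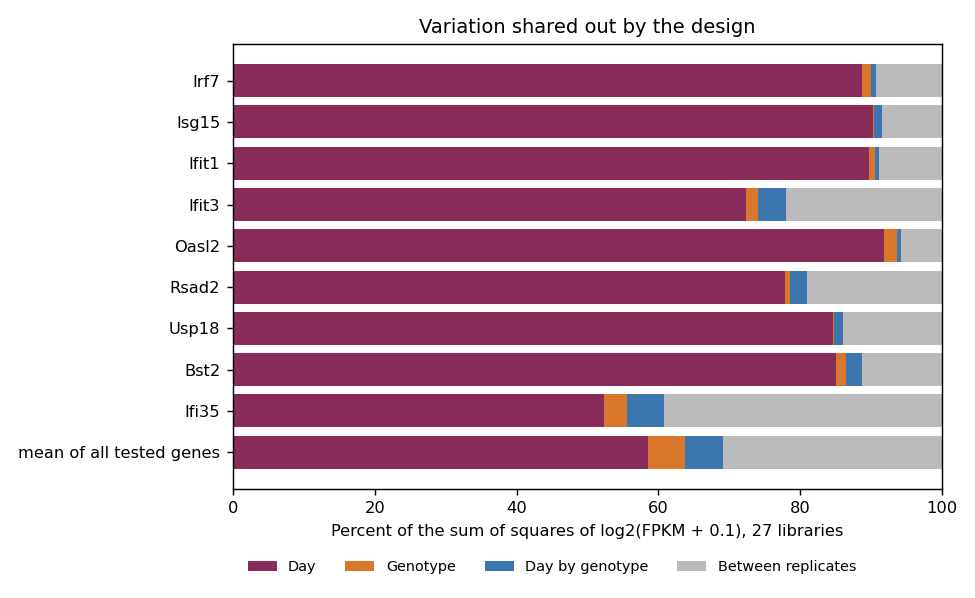
Share (%) of each member's sum of squares of log2(FPKM + 0.1) over the 27 libraries that lies between days, between genotypes, in their combination and within groups, with the mean over all tested genes as the last bar. Days hold 52.3% to 91.8% in the members and genotypes no more than 3.31%.

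The spread within groups was shared by the members. Replicate 2 of the day 0 libraries labelled Per2-/- was the highest of its group for all 9 members, with Isg15 at 9.19 FPKM against 3.08 and 3.15. Replicate 2 of WT day 4 was the highest for 8 members, Rsad2 excepted, with Isg15 at 67.0 FPKM against 31.9 and 31.8. Replicate 1 of Per1-/- day 4 was the highest for 8, Isg15 excepted, and replicate 3 of that group the lowest for all 9. Replicate 3 of the day 4 libraries labelled Per2-/- was the highest for 8, Rsad2 excepted. After the group mean was subtracted, a member's correlation with the mean of the other 8 across the 27 libraries was 0.448 for Rsad2 to 0.909 for Usp18, as a description of libraries that share culture and depth.

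Macrophage markers moved with the day as well. Their 20 genes summed to 161 to 1308 FPKM on day 0 (median 407), 216 to 1494 on day 2 (median 511) and 554 to 2532 on day 4 (median 1022). None of them was at 0 in every library of a day. On day 4, 19 of the 20 were called higher than on day 0, beside 24.4% of tested genes. Without Aif1, which passed the filter only through later days, the count was 18 of 19. Adgre1 (F4/80) rose by 2.35 and Csf1r by 2.19 on the log2 scale. By genotype, the day 4 sums were 733 to 1274 in WT, 1441 to 2532 in Per1-/- and 554 to 947 in the libraries labelled Per2-/-. In 3 of the 9 groups the library with the highest mean of the members was also that with the highest macrophage sum: Per1-/- day 0 replicate 3, Per1-/- day 4 replicate 1, which was the highest of its day in both, and replicate 3 of the day 4 libraries labelled Per2-/-. In the other groups it was not. Replicate 2 of the day 0 libraries labelled Per2-/-, highest for all 9 members, had the lowest macrophage sum of its day, 161 FPKM. Replicate 2 of WT day 4, highest for 8 members, had the lowest sum of its group, 733. Per1-/- day 4 replicates 1 and 3 had sums of 2532 and 2500, and mean member levels of 4.15 and 2.81 on the log2 scale. With the mean macrophage marker level of a library as a covariate, 7, 9 and 8 members were called higher in the comparisons of day 2 with day 0, day 4 with day 0 and day 4 with day 2, with median log2 changes of 1.97, 2.79 and 1.23. The slope of this covariate came only from differences between replicates of a group. This fit therefore cannot decide what part of the day changes came from macrophages, and that part was not tested. The 7 plasmacytoid dendritic cell and lymphoid markers, which include the type I interferon producers, summed to 4.33 to 8.67 FPKM on day 0. Their sums were 10.7 to 13.9 FPKM on day 2 and 10.1 to 13.2 on day 4, mostly from Tcf4. Siglech was at 0 in every day 0 library. In later libraries it reached up to 0.869 FPKM and up to 63 fragments, and it was under the filter and not tested.

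**Figure D4:**
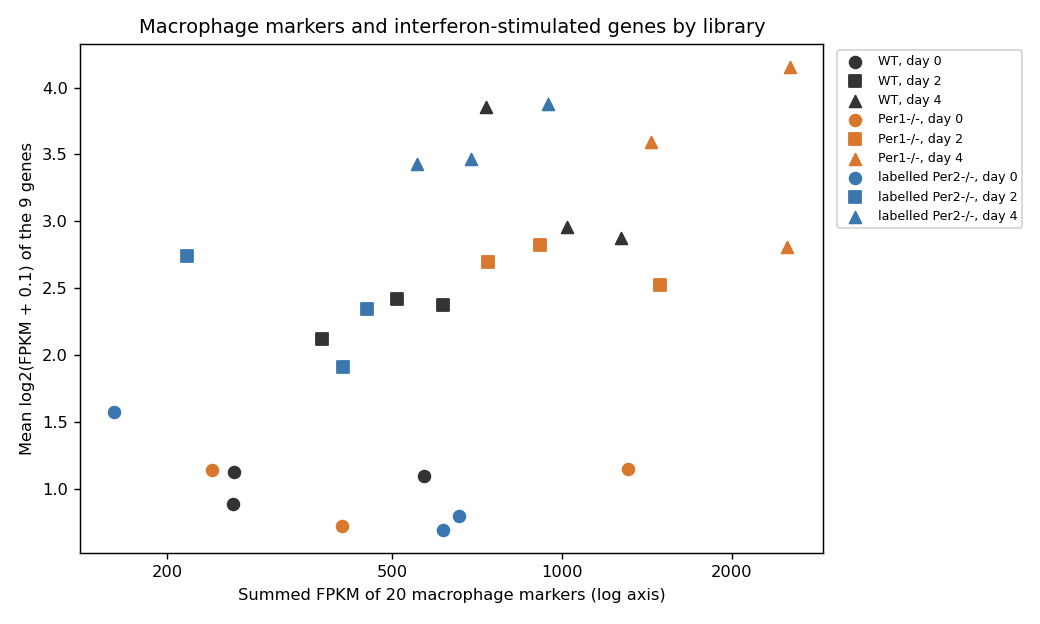
Mean log2(FPKM + 0.1) of the 9 members against the summed FPKM of 20 macrophage markers (log axis), one point per library, with colour for the genotype label and shape for the day. Day 0 libraries lie lowest across marker sums of 161 to 1308 FPKM, and within day 4 the 2 Per1-/- libraries with the highest sums, 2532 and 2500, have member means of 4.15 and 2.81.

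Interferon transcripts themselves were nearly absent. The 20 interferon genes of types I, II and III together had 16 fragments among 531170591 in the 27 libraries, 13 of the 20 had 0, and no gene had more than 3 in a library. Ifnb1, the interferon that fibroblasts usually make first, had 1 fragment in 1 library, where 3 fragments would be 0.154 to 0.271 FPKM. Interferon RNA below that limit, or at another time, was not detectable at this depth. The interferon-alpha genes are near-identical copies, so their counts are uncertain. Of 6 receptor genes, 5 were tested and, averaged over genotypes, 0 were called between days by limma or by voom. The unadjusted limma p was under 0.05 for 4, 5 and 2 in the comparisons of day 2 with day 0, day 4 with day 0 and day 4 with day 2. The share of all tested genes with such a p is not given. Under the stricter rule for a call, 22.2%, 24.4% and 6.54% of them were higher and 19.9%, 21.2% and 3.43% lower. Ifnar1 differed by 0.27 and Ifnar2 by 0.13 on day 4 against day 0, on the log2 scale.

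Of the signalling genes, Stat2 rose by 0.67 to day 2 and 1.58 to day 4, and Irf9, the DNA-binding partner, by 0.85 and 1.26. Jak1 differed by -0.23 on day 4, Tyk2 by -0.06 and Jak2 by 0.49, none past the fold threshold. Of 14 genes for sensing of nucleic acids, 5 were called higher and 1 lower on day 2, and 7 higher and 1 lower on day 4, beside 22.2% and 24.4% of tested genes higher. Tlr9 and Zbp1 among them passed the filter only through later days. Without these genes, the counts called higher were 3 and 5 of 12, with 1 lower each time. The endosomal DNA receptor Tlr9 rose by 2.92 to day 4 and the RNA receptor Tlr7 by 1.67. Dhx58 (LGP2) rose by 2.36, Ifih1 (MDA5) by 0.97 and Ddx58 (RIG-I) by 0.90. Tmem173 (STING), the adaptor of cytosolic DNA sensing, fell by 1.10 on the log2 scale, and Irf3 differed by -0.03, not past the test.

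Type I interferon-stimulated genes outside the 9 members moved in the same direction. Of 59 listed genes, 54 were tested. On day 2, 37 were called higher and 2 lower than on day 0, with a median log2 change of 1.02. On day 4, 44 were called higher and 2 lower, with a median of 1.58, and from day 2 to day 4 27 were higher and 0 lower. The shares of all tested genes called higher were 22.2%, 24.4% and 6.54% in these comparisons. Of the 54, 14 had a day 0 mean under 0.5 FPKM and passed the filter only through later days, Oas2, Slfn5, Cmpk2 and Mx2 among them. Of the other 40, 23, 30 and 16 were called higher. Ifi27l2a rose by 5.31 to day 4, Oas2 by 3.58, Slfn5 by 3.42, Cmpk2, a mitochondrial kinase, by 3.27, the antiviral GTPase Mx2 by 3.19 and Rtp4 by 3.10. Oas1a, an oligoadenylate synthetase proper, rose by 2.47. The GTPase Mx1 was under the filter and not tested, at 0.0281 ± 0.0270 FPKM, 0.304 ± 0.0994 FPKM and 1.06 ± 0.569 FPKM on days 0, 2 and 4. Isg20, an exonuclease, fell by 0.67 and Pml, of the nuclear bodies, fell by 0.83. Of 22 genes known for induction by interferon gamma, 17 were tested, and 12 were called higher and 1 lower on day 4, or 8 and 1 of the 13 with a day 0 mean of at least 0.5 FPKM. Iigp1, an immunity-related GTPase, rose by 3.83, Igtp by 2.40 and Irgm2 by 2.38, and Irgm1 fell by 0.80. Ifng had 0 fragments in all libraries. Of the 8 negative regulators other than members, 7 were tested, and Adar, at 0.64, was the only one called higher on day 4. The lists overlap in part: 8 of the type I genes are also in another list.

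**Figure D5:**
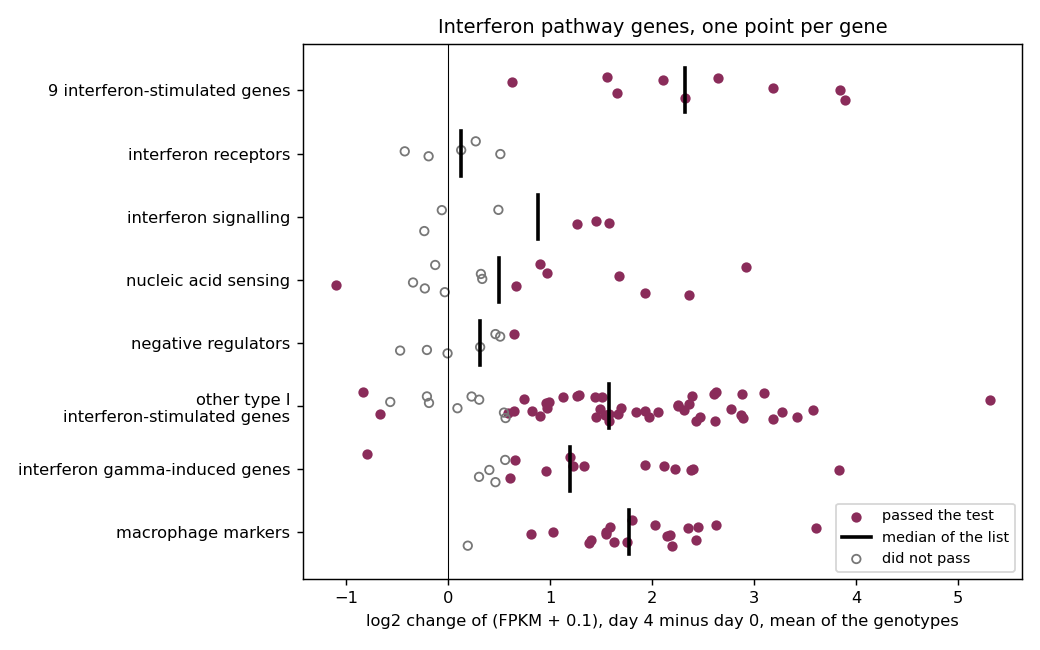
Log2 change from day 0 to day 4, averaged over genotypes, of the 9 members and of the tested genes of each interferon list and of the macrophage markers, one point per gene, filled where the gene was called, with a bar at the median. The medians are 2.32 for the 9 members, 1.58 for the other type I genes, 1.19 for the interferon gamma genes, 1.78 for the macrophage markers and 0.13 for the receptors.

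Between genotypes over the days, limma and voom called 0 genes of every interferon list. The unadjusted limma p was under 0.05 for 11 of the 54 type I genes in Per1-/- against WT. It was so for 0 in the libraries labelled Per2-/- against WT and 10 in Per1-/- against those. The share of all tested genes under this rule is not given, so no genotype difference is read from these counts. Of the 54, 14 passed the filter only through later days. Within a day, 1 gene of these lists was called, Xaf1, a pro-apoptotic interferon-stimulated gene on chromosome 11 (72301629 to 72313733), which also carries Per1 (69095217 to 69109960). Xaf1 was 0.370 to 0.447 FPKM in WT on day 0 and 1.22 to 2.57 in Per1-/-. On day 2 it was 1.56 to 2.12 in WT and 7.56 to 11.9 in Per1-/-, and on day 4 2.84 to 4.66 and 8.98 to 21.6. Every Per1-/- library was above every WT library of its day. The log2 differences were 1.92 (adjusted p = 0.0486), 2.23 (adjusted p = 0.0191) and 2.00 (adjusted p = 0.0295) on the 3 days. The libraries labelled Per2-/-, at 0.291 to 4.66 FPKM over the days, differed from WT by 0.24, -0.01 and 0.25, not called. Xaf1 also rose with the day, by 2.77 to day 4 averaged over genotypes.

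Over the 27 libraries, the genes outside the 9 whose log2 values were most like the mean of the members were Parp9 (r = 0.978), Gm4951 (r = 0.972), Dhx58 (r = 0.972), Ifi44 (r = 0.972), Gm20559 (r = 0.971), Iigp1 (r = 0.967), F830016B08Rik (r = 0.967), Rtp4 (r = 0.966), Parp10 (r = 0.965) and Irgm2 (r = 0.963), a likeness that includes the shared change with the day. After the group mean was subtracted, so that only differences between replicates were left, those highly alike included Parp9 (r = 0.868), Irgm1 (r = 0.867), Ifi44 (r = 0.862) and Gm4951 (r = 0.861). Irgm1, which fell from day 0 to day 4, thus followed the members between replicates. These are descriptions over libraries that share culture and depth.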

How the data were processed

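Poly(A) mRNA of 27 mouse libraries was sequenced as paired ends without strand information. The authors discarded poor and adaptor-bearing reads, mapped the remainder with HISAT2 2.0.5 (GRCm38), counted fragments per gene with featureCounts 1.5.0-p3 and deposited FPKM per gene, the values used here. Genotype, day and replicate came from the labels, and 0 value columns were left unmapped. The 9 members and the gene lists were chosen with earlier results of these data known.

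All FPKM were whole fragments (100% within 0.02), which gave the depths and a voom alternative. The 14932 of 54532 genes whose mean reached 0.5 FPKM were fitted with limma 3.58.1 (limma-trend, R 4.3.3) on log2(FPKM + 0.1) in 9 groups, with Benjamini-Hochberg adjustment in each comparison. Called genes met the limits the study set for its test of counts, 0.05 for the adjusted p and 0.58 for the log2 change; that test was not run here. Genotypes over the days were compared on the mean of same-numbered libraries. The pseudocount understates fold changes of low genes. Named from the lists were the called genes with the largest changes (up to 6 in each direction), Ifnb1, Ifnar1, Ifnar2, Stat2, Irf9, Irf3, Mx1, Oas1a, Ifit2, Ddx58, Ifih1, Xaf1, Adgre1 and Csf1r, and the 10 genes most correlated with the mean of the members; Ifit3b, Jak1, Jak2, Tyk2, Ifng, Siglech, Tcf4 and Rbfox3 were added after their values were seen. Some items are not reported here. Same-numbered libraries of a genotype deviated together (every r over 0.1) in 3 of 9 pairs of days. A library was best matched by its own number in 48 of 54 cases of a library and another day. No label states a pairing, and the main fits of days did not use the replicate number. The fits were tested on simulated data. Alternatives were another pseudocount, filter, scaling or sample set, no minimum fold, a macrophage covariate, a replicate block, voom and leaving out each library. Python 3.11.15 (pandas 2.3.3; numpy 2.4.6; matplotlib 3.10.9) made summaries and plots.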

Additional observations from a re-analysis of the deposited data

How the results depend on the processing

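Each comparison was computed under 11 other settings and without each of the 27 libraries. The count of members called was 0 between genotypes under every one. Averaged over genotypes it ran from 6 to 8 for day 2 against day 0, from 8 to 9 for day 4 against day 0 and from 5 to 8 for day 4 against day 2. Within a genotype the counts for day 2 against day 0 ran from 6 to 7 in WT, 6 to 8 in Per1-/- and 6 to 7 in the libraries labelled Per2-/-, and for day 4 against day 0 from 7 to 9, 8 to 9 and 8 to 9. Only those of day 4 against day 2 moved by over 1.5 times. WT gave 2 with a pseudocount of 1, with the macrophage covariate, with only the groups compared and with the replicate block. Per1-/- gave 2 with a pseudocount of 1, the covariate and the block, and 0 without a filter and with only the groups compared. The libraries labelled Per2-/- gave 7 with a pseudocount of 1 and 7 with the block. Without 1 library these counts ran from 0 to 2 in WT (0 without WT day 2 replicate 2, 2 without Per2-/- day 0 replicate 2), 0 to 2 in Per1-/- and 0 to 6 in those labelled Per2-/- (0 without day 4 replicate 3). The block, on the replicate number, changed no other count. Same-numbered libraries deviated together at r over 0.1 in 14 of 27 pairs over days within a genotype (-0.02 to 0.29) and in 3 of 27 across genotypes. Every pair was over 0.1 in 3 of the 9 comparisons of days within a genotype (WT day 2 with day 4, Per1-/- day 0 with day 2 and day 2 with day 4). Each library was also matched to the 3 libraries of each other group in these comparisons. Its own number was the best match in 48 of 54 such cases over days and in 13 of 54 across genotypes. Differences that were not called changed sign as follows, on the log2 scale. Rescaling to a common sum gave Ifit3 0.23 from day 0 to day 2 over genotypes and 0.11 in the libraries labelled Per2-/-, Usp18 -0.019 in Per1-/- minus WT over the days, and Ifit3 -0.066 in Per1-/- minus labelled Per2-/-. Isg15 in Per1-/- minus WT was 0.0036 with a pseudocount of 1, 0.0010 with size factors computed again, 0.0012 with voom and 0.41 with the macrophage covariate. The covariate also gave -0.020 for Irf7, -0.061 for Isg15 and -0.049 for Usp18 in labelled Per2-/- minus WT, and 0.48 for Ifit1, 0.47 for Isg15 and 0.52 for Usp18 in Per1-/- minus labelled Per2-/-. The cause was not tested. Without 1 library, Per1-/- minus WT over the days ran from -0.045 to 0.47 for Ifit1, -0.017 to 0.45 for Ifit3, -0.10 to 0.16 for Isg15, -0.049 to 0.43 for Rsad2 and -0.087 to 0.23 for Usp18. Labelled Per2-/- minus WT ran from -0.14 to 0.11 for Bst2, -0.10 to 0.082 for Ifi35, -0.073 to 0.25 for Irf7, -0.15 to 0.27 for Isg15, -0.15 to 0.33 for Rsad2 and -0.085 to 0.27 for Usp18. Per1-/- minus labelled Per2-/- ran from -0.41 to 0.11 for Ifit1, -0.27 to 0.19 for Ifit3, -0.026 to 0.41 for Irf7, -0.27 to 0.15 for Isg15, -0.067 to 0.25 for Rsad2 and -0.23 to 0.16 for Usp18. Ifi35 from day 0 to day 2 in WT ran from -0.039 to 0.13, Ifit3 in the libraries labelled Per2-/- from -0.52 to 0.084, and Usp18 from day 2 to day 4 from -0.0026 to 0.77 in WT and -0.015 to 0.79 in Per1-/-. Of the members averaged over genotypes, a pseudocount of 1 took Ifi35 on day 4 to 0.56 and Rsad2 from day 2 to day 4 to 0.57, under the fold threshold.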
